A study of Mus musculus with 15 samples.

Results

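The Hox cluster genes were taken as the 39 of the 55359 genes in the matrix whose name is Hox followed by a cluster letter, a to d, and a paralog number. The Hoxa cluster held 11 of them, Hoxb 10, Hoxc 9 and Hoxd 9. RNA was sequenced from 15 mouse samples in 5 groups of 3. 46LCNEC_cell was an adherent line of large cell neuroendocrine carcinoma (LCNEC), set up from a lung tumor of a QKO mouse infected with Ad-CMVcre, an adenovirus whose CMV promoter drives Cre in many lung cell types, and was sampled from separate dishes A, B and C. 57SCLC_cell was a floating line of small cell lung carcinoma (SCLC) from a QKO mouse infected with Ad-K5cre, which drives Cre in basal cells expressing keratin K5, and was sampled from separate flasks A, B and C. QKO mice carried alleles that Cre deletes, Rb1 F/F and Trp53 F/F among them, on an Rbl1-/- background. 46LCNEC_allo (tumors 312, 319 and 321) and 57SCLC_allo (tumors 275, 316 and 317) were subcutaneous tumors grown from these lines in immunocompetent QKO mice, and Lung (CT3, CT4 and CT5) was non-tumor lung of littermates of the mice that carried allografts. The animals' ages are not given for these samples. Each subtype was represented by 1 cell line, so a difference between subtypes cannot be told apart from one between individual lines, and p-values measured the spread between these samples only.

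Hox genes encode homeodomain transcription factors that give cells their position along the body axis. Within each cluster all genes are read from the same strand, and low paralog numbers lie at the end that is switched on early and toward the head, high numbers at the end that is switched on late and toward the tail. Genes with the same number in different clusters are paralogs, descended from 1 ancestral gene. Hox proteins bind DNA together with the TALE cofactors (Pbx, Meis and Pknox), retinoic acid induces the early end of the clusters, and Polycomb and Trithorax complexes hold them silent or active. In the lung, genes of the Hoxa and Hoxb clusters pattern the developing organ, and the adult tissue keeps part of that expression.

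The promoters of 3 members that carry the differences below are shown, Hoxb8 as a gene higher in all tumor groups than in Lung, Hoxb4 as one abundant in every group and Hoxa2 as one that was highest in Lung. Each sequence is the 250 bases before the RefSeq start of transcription, matched without mismatch to a single place in GRCm39, and none of the 3 covers an annotated exon. Hoxb8 is at chr11:96172481-96172730 on the plus strand, Hoxb4 at chr11:96208843-96209092 on the plus strand and Hoxa2 at chr6:52141812-52142061 on the minus strand. Capitals mark matches on either strand of TGATNNAT (bound by Pbx with Hox proteins), TGACAG (Meis and Pknox), TATAAA (the core promoter box of that name) and CCAAT (bound by NF-Y), and no marked match overlaps another.
Hoxb8: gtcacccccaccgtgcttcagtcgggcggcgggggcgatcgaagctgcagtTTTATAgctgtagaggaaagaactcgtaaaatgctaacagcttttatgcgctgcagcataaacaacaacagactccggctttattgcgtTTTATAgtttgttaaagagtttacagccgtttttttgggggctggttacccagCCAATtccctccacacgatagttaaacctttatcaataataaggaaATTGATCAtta
Hoxb4: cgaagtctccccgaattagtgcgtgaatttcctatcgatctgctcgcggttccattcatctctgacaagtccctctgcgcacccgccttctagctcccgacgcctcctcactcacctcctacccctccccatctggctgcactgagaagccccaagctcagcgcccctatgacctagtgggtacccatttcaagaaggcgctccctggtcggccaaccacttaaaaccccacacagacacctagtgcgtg
Hoxa2: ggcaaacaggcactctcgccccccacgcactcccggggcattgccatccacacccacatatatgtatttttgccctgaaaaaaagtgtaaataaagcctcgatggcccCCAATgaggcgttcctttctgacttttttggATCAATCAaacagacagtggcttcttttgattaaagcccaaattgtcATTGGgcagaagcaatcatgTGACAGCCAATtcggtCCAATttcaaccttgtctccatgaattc
The Hoxb8 promoter held 1 match of TGATNNAT, 11 bases before the start, and 1 of CCAAT. It also held 2 of TATAAA, both on the opposite strand, 199 and 110 bases before the start. The Hoxa2 promoter held 1 match of TGATNNAT, 1 of TGACAG and 4 of CCAAT, and the Hoxb4 promoter held none of the 4 motifs. RefSeq gave such sequences for 22 of the 39 members, as 24 promoters. TGATNNAT was found in 16.7% of these and in 7.68% of the 32851 promoters of all genes, TGACAG in 8.33% against 15.9%, TATAAA in 16.7% against 12.4% and CCAAT in 58.3% against 33.9%. A match of letters is a description and not a bound site.

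The libraries held 9480244 to 44876572 counted reads with a median of 26502525, and the smallest were the 57SCLC_allo tumors at 9480244 to 20378892. Values are counts divided by the authors' size factors (normalized counts), so that 3 reads, taken as the floor of detection, corresponded to 1.56 normalized counts in the deepest library and to 7.18 in 57SCLC_allo tumor 275. The deleted genes did not check the labels, because gene-level counts also hold the exons outside the deletion: Rb1 had 66.6 to 99.9 normalized counts in 46LCNEC_cell, 229 to 777 in 57SCLC_cell and 247 to 329 in Lung. Of 8 neuroendocrine markers, all had means of at least 685 in 57SCLC_cell, whereas in 46LCNEC_cell Ncam1 had a mean of 29936 and the other 7, among them Chga and Syp, had means of 1.56 to 13.7, so that of these markers Ncam1 alone was abundant in that line. The 46LCNEC cells also held high collagen RNA, with 50209 normalized counts of Col1a2 on average. Lung held its epithelial markers at a sum of 348240 to 456457, against 126 to 551 in both cell lines.

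A gene at 0 in this matrix need not be silent. Of the 39 Hox genes, 15 were at 0 in all 15 samples (Hoxa3, Hoxa4, Hoxa5, Hoxa6, Hoxa11, Hoxb2, Hoxb5, Hoxb6, Hoxc6, Hoxc8, Hoxc9, Hoxd1, Hoxd4, Hoxd8 and Hoxd12), and 12 of these, all but Hoxa11, Hoxd1 and Hoxd12, lie wholly inside the annotated spans of other genes, introns included. Hoxa5, a gene the developing lung needs, lies at chr6:52178734-52181567 inside the spans of Hoxa3 and the noncoding genes Hoxaas3 and Gm28308, and had 0 reads in every sample. Among all protein-coding genes, 72.5% of the 1394 with no span of their own were at 0 in all samples, against 13.2% of the 20233 with some span of their own. How the counting treated reads over more than 1 gene is not given in the sources used here, so the 12 genes are listed at 0 and nothing was read from them. Hoxb7 and Hoxb8 also lie inside another span, that of the antisense gene Hoxb5os, in the annotation release used here, which is later than the authors', yet they had many reads. Strand use was not stated either, so reads of Hoxb7, Hoxb8 and Hoxb9 cannot be told apart from antisense reads of Hoxb5os. Hoxc5 has an annotated span of 49984 bases that covers Hoxc6, Hoxc8 and Hoxc9 and 85.7% of Hoxc10, so its counts may hold reads of these genes. The span of Hoxa2 is covered over 45.85% by Gm28308 on the same strand and over 21.35% by Hotairm1 on the opposite strand. Its counts may hold reads of these genes or miss some of its own.

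Another 6 members (Hoxa13, Hoxc12, Hoxc13, Hoxd3, Hoxd11 and Hoxd13) never exceeded 3 reads in a library. The remaining 18 were detected in at least 1 sample. The number above 3 reads in all samples of a group was 9 for Lung, 9 for 46LCNEC_cell and 6 for 57SCLC_cell, and was 12 for 46LCNEC_allo and 11 for 57SCLC_allo.

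**Figure D1:**
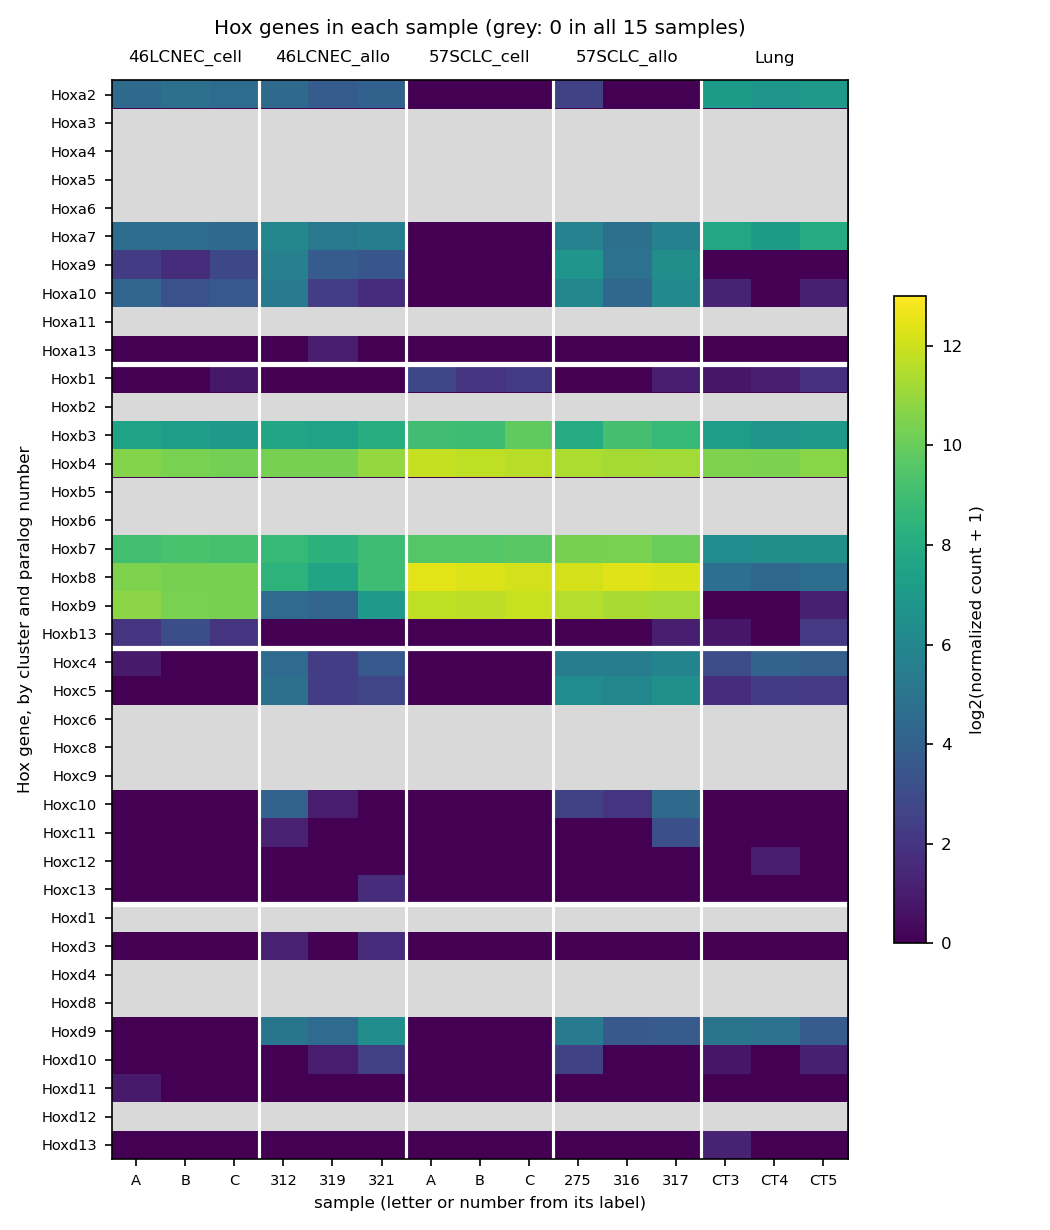
Levels of 38 Hox genes (rows, by cluster and paralog number) in the 15 samples (columns, by group), as log2(normalized count + 1); grey rows were at 0 in all 15 samples. Hoxb3, Hoxb4, Hoxb7, Hoxb8 and Hoxb9 are bright in both cultured lines, Hoxb9 is dimmer in 46LCNEC_allo at 17.9 to 128 normalized counts, the Hoxa rows are at 0 in the 3 57SCLC_cell samples, and Hoxa9, Hoxa10, Hoxc4, Hoxc5 and Hoxd9 appear in allografts.

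Most of the Hox reads that were counted came from the Hoxb cluster in every group, and their sum was highest in the SCLC line. Sums and shares hold the counted genes only and leave out any RNA of the 12 genes that could not be read, among them Hoxa3, Hoxa4, Hoxa5 and Hoxa6, so they are shares of counted reads and not of all Hox RNA. The members summed to 13489 ± 508 normalized counts (SD, n = 3) in 57SCLC_cell and 12006 ± 583 in 57SCLC_allo. The sum was 5017 ± 460 for 46LCNEC_cell, 2771 ± 728 for 46LCNEC_allo and 2154 ± 195 for Lung. Hoxb genes made up 100% of the sum in each 57SCLC_cell sample and 96.3% to 98.4% in the 57SCLC allografts. They made up 97.6% to 97.8% in 46LCNEC_cell, 87.2% to 93.7% in the 46LCNEC allografts and 79.2% to 82.8% in Lung. The Hoxa cluster was the other contributor in Lung, with 14.6% to 18.8% of the sum, and had no read in any 57SCLC_cell sample.

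By paralog number, of the counted reads in Lung group 4 made up 70.4%, nearly all from Hoxb4, whereas group 8 contributed 1.08% and group 9 contributed 1.14%. Groups 2 to 6, 8 and 9 each hold at least 1 gene that could not be read, so a low share of theirs is not absence. In 57SCLC_cell groups 4, 8 and 9 contributed 25.4%, 37.6% and 26.4%, and in 46LCNEC_cell 27.5%, 26.5% and 28.8%. The cultured lines thus held reads of Hoxb8 and Hoxb9, which were low or at the floor in Lung, and 46LCNEC_allo was nearer to Lung in this division, with 55.0%, 12.4% and 4.54%. Group 10 was at 12.5 ± 4.74 normalized counts in 46LCNEC_cell, from Hoxa10, and at 0 in 57SCLC_cell. Groups 11 to 13 stayed below 8 normalized counts in all samples.

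Levels of different genes were compared per kb of exon, for members with a mean of at least 100 normalized counts in the group. Exon lengths include bases shared with other genes, where reads may not have been counted. Hoxb3 had 2491 of 5138 exon bases of its own and Hoxa2 1932 of 2573, against all 2566 of Hoxb4. The levels of Hoxb3 and Hoxa2 may thus be understated. In 57SCLC_cell the order was Hoxb8 at 1914 ± 206 normalized counts per kb, Hoxb4 at 1338 ± 117, Hoxb9 at 1314 ± 107, Hoxb7 at 500.2 ± 19.5 and Hoxb3 at 125 ± 46.7, with overlapping samples only for Hoxb4 and Hoxb9. In 46LCNEC_cell Hoxb4 (538 ± 62.3), Hoxb9 (533 ± 81.0) and Hoxb8 (500.5 ± 30.4) lay side by side with overlapping ranges, above Hoxb7 at 379 ± 23.9 and Hoxb3 at 30.5 ± 5.83. In Lung Hoxb4 stood at 586 ± 50.9 per kb, far above Hoxa7 at 71.0 ± 21.6 and Hoxa2 at 48.6 ± 3.66, which overlapped each other, and Hoxb3 at 25.2 ± 4.64. Hoxb7, with a mean below 100 in Lung, stood at 53.9 per kb there.

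The first question was how the cultured lines differed. Hoxb3, Hoxb4, Hoxb8 and Hoxb9 were higher in 57SCLC_cell than in 46LCNEC_cell, by 2.46-fold to 4.11-fold, while Hoxa2 and Hoxa7 were present in the LCNEC line and had no read in the SCLC line. A gene was called when its adjusted p was at most 0.01 and its log2 fold change at least 1 in size. Of the 39 members, 8 passed the filter on low values, 4 were called higher and 3 lower in 57SCLC_cell, beside 23.9% called higher and 22.2% called lower among all 16920 genes tested. A gene that passed the filter through 1 group alone had to differ, so these counts are a description.

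Hoxb8, a gene of the trunk region that is also known from leukemia, lies at chr11:96172731-96176160. It had 1421, 1285 and 1279 normalized counts in 46LCNEC_cell A, B and C, and 5579, 5163 and 4495 in 57SCLC_cell A, B and C. Every SCLC culture was above every LCNEC culture, and the log2 fold change was 1.93 ± 0.10 (SE, adjusted p = 5.8e-07, limma). Hoxb9 (chr11:96162150-96167421), a gene of the thoracic region, had 1695, 1340 and 1295 in 46LCNEC_cell and 3518, 3288 and 3866 in 57SCLC_cell. The groups did not overlap, and the log2 fold change was 1.31 ± 0.12 (adjusted p = 1.9e-05). With all 15 samples in 1 model, its adjusted p was 0.043 and the call was lost.

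Hoxb4 (chr11:96209093-96212464), known for the expansion of blood stem cells, had 1563, 1316 and 1264 in 46LCNEC_cell and 3703, 3484 and 3109 in 57SCLC_cell. It was higher in all SCLC cultures, by 1.32 ± 0.11 on the log2 scale (adjusted p = 9.8e-06). Hoxb3 (chr11:96214152-96238756), its neighbor toward the early end, had 187, 157 and 127 in 46LCNEC_cell and 510.0, 501 and 921 in 57SCLC_cell. It was higher in the SCLC line by 1.99 ± 0.26 on the log2 scale (adjusted p = 0.00017), and culture C stood apart within that group. Hoxb7 (chr11:96177449-96180988) had 543, 611 and 602 in 46LCNEC_cell against 759, 751 and 807 in 57SCLC_cell. These groups did not overlap either, but the log2 fold change of 0.40 (95% interval 0.20 to 0.60, adjusted p = 0.0033) was below the size that was called.

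The Hoxa genes went the other way. Hoxa2 (chr6:52138599-52141811), which patterns the hindbrain and second pharyngeal arch, had 21.6, 26.5 and 23.1 normalized counts in 46LCNEC_cell and 0 reads in all 57SCLC_cell samples, at least 13.1-fold lower when set against the highest 3-read floor of a library. Hoxa7 (chr6:52191471-52198834) had 23.5, 23.2 and 21.5 against 0, at least 12.6-fold lower. Both passed the filter through 46LCNEC_cell alone, so their calls add nothing to these values. Hoxa10 at 8.83 to 17.8 and Hoxa9 at 2.21 to 6.15 normalized counts in 46LCNEC_cell, also at 0 in 57SCLC_cell, did not pass the filter. Hoxb1 was the only member of the opposite kind below the filter, with 5 to 11 reads in each 57SCLC_cell sample and at most 1 read in 46LCNEC_cell.

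**Figure D2:**
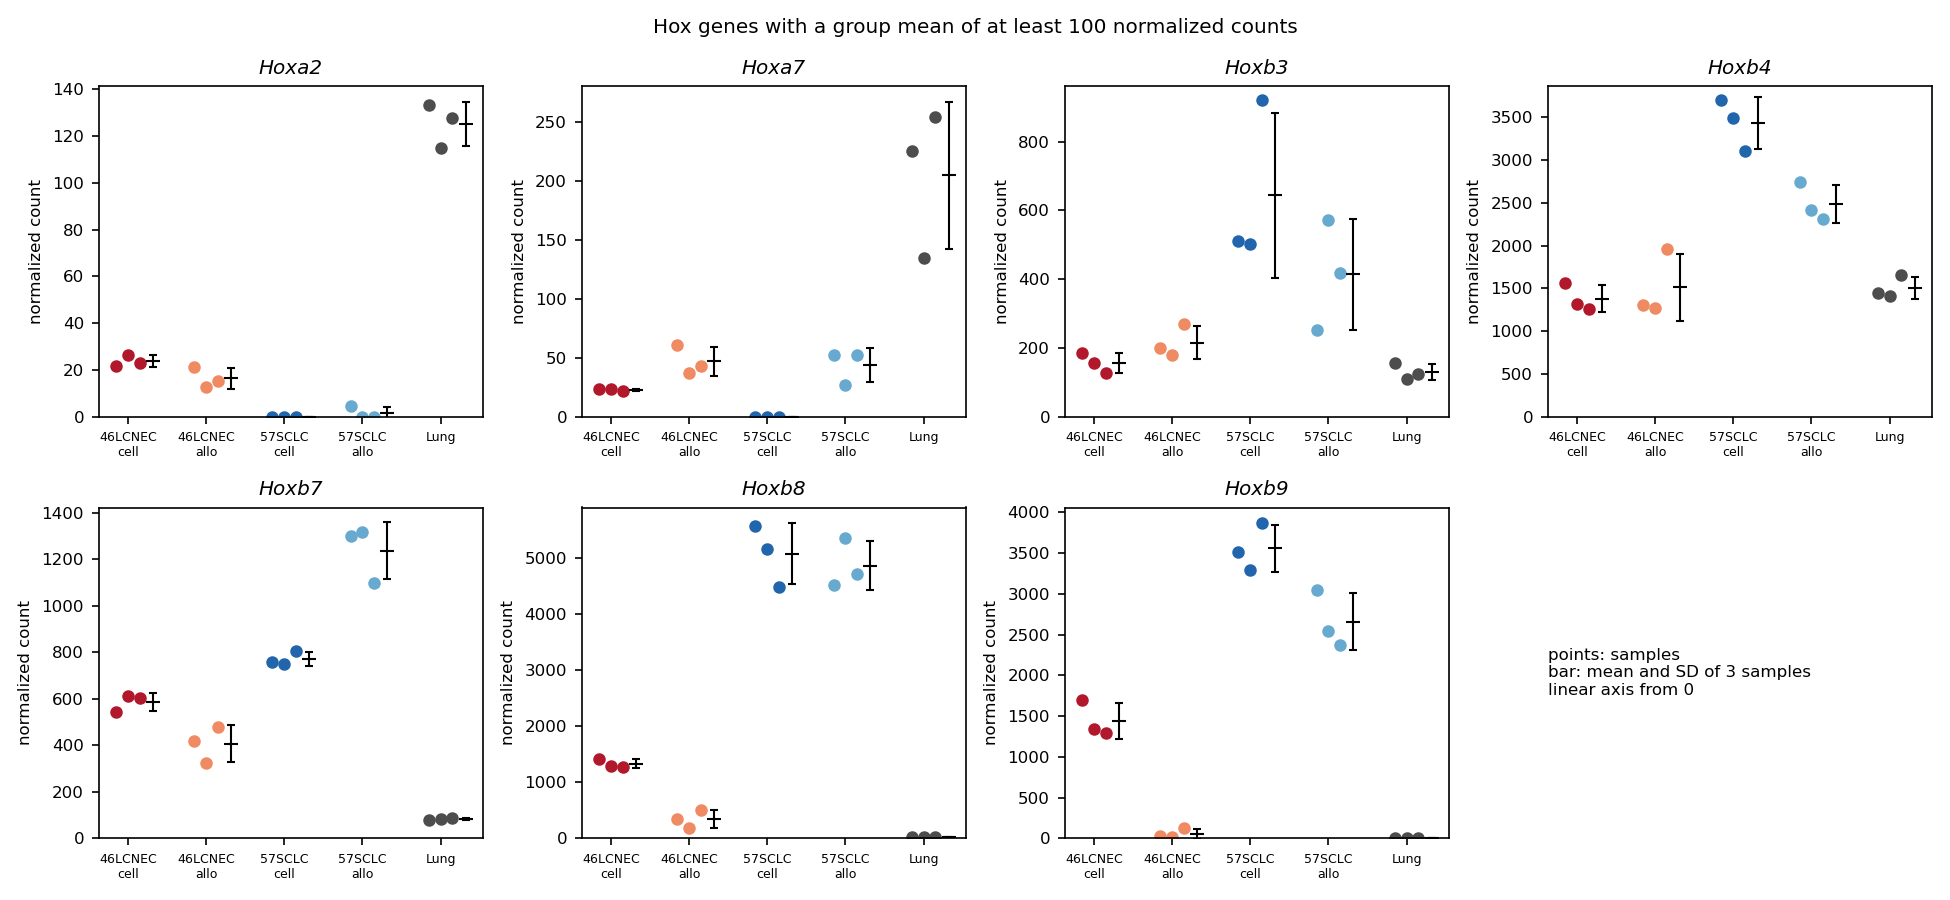
Normalized counts of the 7 Hox genes with a group mean of at least 100, by sample (points) with the mean and SD of 3 samples (bars) on linear axes from 0. Hoxb8 and Hoxb9 are high in both 57SCLC groups and fall from 46LCNEC_cell to 46LCNEC_allo, and Hoxa2 and Hoxa7 are highest in Lung.

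The same comparison was made between the allografts. Hoxb7, Hoxb8 and Hoxb9 were higher in 57SCLC_allo than in 46LCNEC_allo, by 3.04-fold, 14.2-fold and 47.2-fold. Of the 39 members, 13 were tested, 4 were called higher and 2 lower, beside 16.1% called higher and 14.2% called lower among 17502 genes. Of the called, Hoxa2 and Hoxc5 passed the filter only with the tumors where they were higher, so these counts are a description. Among all called genes, 53.1% were higher in 57SCLC_allo, and 64.2% when values were scaled by library size, which moved the median of all genes by 0.26 (log2).

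Hoxb8 had 340, 191 and 501 normalized counts in 46LCNEC_allo tumors 312, 319 and 321, and 4522, 5368 and 4717 in 57SCLC_allo tumors 275, 316 and 317. The SCLC tumors were all above the LCNEC tumors, by 3.92 ± 0.33 on the log2 scale (adjusted p = 0.00012). Hoxb9 had 22.5, 17.9 and 128 in 46LCNEC_allo and 3052, 2544 and 2376 in 57SCLC_allo, a log2 fold change of 6.10 ± 0.70 (adjusted p = 0.00043). Tumor 321 held most of the Hoxb9 of the LCNEC tumors, and without it the fold was 132 in place of 47.2. Hoxb7 had 419, 323 and 480.1 in 46LCNEC_allo and 1297, 1315 and 1096 in 57SCLC_allo, and was called at a log2 fold change of 1.61 ± 0.18 (adjusted p = 0.00035), larger than the 0.40 between the cultured lines.

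The other Hoxb genes differed less between the tumors. Hoxb4 had 1303, 1273 and 1960 in 46LCNEC_allo and 2741, 2412 and 2310 in 57SCLC_allo. These did not overlap, but the log2 fold change of 0.74 (95% interval 0.30 to 1.18, adjusted p = 0.013) was not called. With library size scaling it was 1.01 and was called. Hoxb3 had 199, 179 and 269 against 251, 572 and 418, which overlapped (log2 fold change 0.88 ± 0.33, adjusted p = 0.059).

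Hoxa2 and Hoxc5 were called between the tumors near the threshold. Hoxa2 had 21.2, 12.6 and 15.5 normalized counts in 46LCNEC_allo and 4.79, 0 and 0 in 57SCLC_allo, the first of which was 2 reads (log2 fold change -3.25, adjusted p = 0.0097). Hoxa2 passed the filter through 46LCNEC_allo alone, and its ratio of read rates was 16.1 (95% counting interval 4.20 to 138). Hoxc5 had 26.5, 4.21 and 5.53 against 76.6, 60.9 and 89.6 and was called higher (2.95 ± 0.66, adjusted p = 0.0083). It passed the filter only with the 57SCLC_allo tumors, where it was highest. Both calls were lost under several alternatives: edgeR called neither, and left-out samples took each of them over the threshold, with adjusted p of at most 0.039 over all alternatives. Hoxa7 did not differ beyond its spread, with 60.9, 36.8 and 43.1 against 52.7, 26.9 and 52.2.

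Against Lung, Hoxb7, Hoxb8 and Hoxb9 were higher in both lines and in both kinds of allograft, and Hoxa2 and Hoxa7 were lower in all 4. The comparisons share the 3 Lung samples, so they are not independent of one another. Hoxb9 had 0, 0 and 1 read in Lung CT3, CT4 and CT5, which made the ratio of read rates 4594 (95% counting interval 824 to 181500) for 46LCNEC_cell and 11410 (2047 to 450600) for 57SCLC_cell. For the allografts the ratio was 184 (32.5 to 7303) with 46LCNEC and 8230 (1476 to 325100) with 57SCLC. In 46LCNEC_allo the Hoxb9 call was lost without Lung CT3 (adjusted p = 0.0124) or CT4 (adjusted p = 0.0118). Hoxb8 had 25.4, 19.9 and 24.6 normalized counts in Lung, and was higher by 5.78 ± 0.15 on the log2 scale for 46LCNEC_cell, 7.71 ± 0.14 for 57SCLC_cell, 3.73 ± 0.38 for 46LCNEC_allo and 7.65 ± 0.14 for 57SCLC_allo. Hoxb7 had 77.0, 84.8 and 87.8 in Lung and was higher by 2.26 to 3.88.

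Hoxb4 was abundant in Lung too. It had 1450, 1407 and 1652 normalized counts in Lung, and its log2 difference from Lung was -0.12 (95% interval -0.36 to 0.11) in 46LCNEC_cell and -0.02 (-0.46 to 0.43) in 46LCNEC_allo, neither called. In 57SCLC_cell it was higher by 1.19 ± 0.10 (adjusted p = 1.2e-05) and in 57SCLC_allo by 0.73 ± 0.10, which was below the size called. Hoxb3 had 155, 109 and 124 in Lung and followed the same division, with no call in 46LCNEC_cell or 46LCNEC_allo and log2 fold changes of 2.26 ± 0.26 in 57SCLC_cell and 1.61 ± 0.30 in 57SCLC_allo.

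Hoxa7 had 225, 135 and 254 normalized counts in Lung, above every tumor sample. It was lower by -3.07 ± 0.26 (log2) in 46LCNEC_cell and at least 113-fold lower in 57SCLC_cell. The difference was -2.08 ± 0.34 in 46LCNEC_allo, where the call was lost without Lung CT3 (adjusted p = 0.0127) or CT5 (adjusted p = 0.0119), and -2.21 ± 0.36 in 57SCLC_allo. Hoxa2 had 133, 115 and 128 in Lung. It was 5.28-fold lower in 46LCNEC_cell, 7.61-fold lower in 46LCNEC_allo and at least 69.1-fold lower in 57SCLC_cell, and its ratio of read rates in Lung against 57SCLC_allo was 126 (95% counting interval 34.7 to 1045). Hoxd9, the only Hoxd gene with more than 10 normalized counts in Lung (30.6, 28.9 and 12.9), had no read in either cultured line, at least 7.29-fold and 13.3-fold lower in 46LCNEC_cell and 57SCLC_cell.

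Counted over the members, 9 were tested in 46LCNEC_cell, with 3 called higher and 3 lower than Lung, beside 20.6% and 35.0% among all genes. In 57SCLC_cell 9 were tested, with 5 higher and 4 lower, beside 21.1% and 32.7%. In 46LCNEC_allo 10 were tested, with 3 higher and 2 lower, beside 13.4% and 22.1%. In 57SCLC_allo 13 were tested, with 8 higher and 3 lower, beside 18.9% and 26.9%. Members that passed the filter through tumors, cells or Lung alone had to differ, so these counts are a description. Among them were Hoxb9 in every comparison, Hoxd9 for both cultured lines, and Hoxa9, Hoxa10 and Hoxc5 for 57SCLC_allo. The 4 genes outside the Hoxb cluster called higher in 57SCLC_allo were Hoxa9 (no read in Lung, at least 21.2-fold higher), Hoxa10, Hoxc4 (log2 fold change 1.91 ± 0.35) and Hoxc5 (4.18 ± 0.33). The ratio of read rates for Hoxa10 was 56.3 (95% counting interval 18.8 to 277). The median log2 fold change of all genes against Lung was -0.23 in 46LCNEC_cell, and edgeR's scaling moved it by 0.12.

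The lines also differed in what changed between culture and allograft. In the LCNEC line Hoxb8 and Hoxb9 fell, whereas in the SCLC line no Hoxb gene was called. Hoxa, Hoxc and Hoxd genes that had no read in the SCLC cultures appeared in the SCLC tumors. In the LCNEC line Hoxd9 and Hoxc5 also had no read in culture and appeared in the tumors, Hoxc5 below the filter. In 46LCNEC_allo over 46LCNEC_cell 10 members were tested, 1 was called higher and 2 lower, beside 14.4% and 8.45% among 16375 genes. In 57SCLC_allo over 57SCLC_cell 11 were tested, 6 were called higher and 0 lower, beside 14.4% and 2.29% among 17078 genes. No member was called lower by edgeR or DESeq2 either, while 2 of the 11 were lower at an unadjusted p under 0.05. Of all 17078 genes, 8445 had such a p in either direction.

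Hoxb9 went from 1295 to 1695 normalized counts in 46LCNEC_cell to 17.9 to 128 in the tumors, 25.7-fold lower (log2 fold change -5.22 ± 0.67, adjusted p = 0.00074). Without tumor 321 the mean of the tumors was 20.2 in place of 56.2. Hoxb8 went from 1279 to 1421 down to 191 to 501, 3.86-fold lower (-2.05 ± 0.32, adjusted p = 0.0017), and its call was lost without culture A (adjusted p = 0.0117) or C (adjusted p = 0.01001). Hoxb3, Hoxb4 and Hoxb7 were not called, with Hoxb4 at a log2 fold change of 0.11 (95% interval -0.33 to 0.55) and Hoxb7 at -0.54 (-0.94 to -0.14). The 2 genes that fell are the detected members nearest the late end of the cluster, apart from Hoxb13 at 2.81 to 7.73 in culture and 0 in the tumors.

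In bulk tumors fewer tumor cells and less RNA per tumor cell cannot be told apart. Beside the fall of Hoxb8 and Hoxb9, Ncam1 went from 29936 ± 1464 to 4827 ± 2268 normalized counts, the sum of 8 fibroblast markers from 82595 to 93068 up to 433351 to 855317, and that of 6 leukocyte markers from 301 to 343 up to 17152 to 40930. Tumor 321, which had the most Hoxb8 and Hoxb9 of the 3, had the lowest fibroblast sum and the highest leukocyte sum. The sum of the neuroendocrine markers, nearly all Ncam1, was highest in tumor 319 (7405), which had the least Hoxb8 and Hoxb9, and was 4098 in tumor 321 and 3090 in tumor 312. The part of host cells in these changes was not tested. 

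In the SCLC line none of the 5 Hoxb genes was called. Hoxb8 had a log2 fold change of -0.06 (95% interval -0.31 to 0.19), Hoxb9 of -0.43 (-0.68 to -0.17), Hoxb4 of -0.46 (-0.69 to -0.23), Hoxb3 of -0.66 (-1.42 to 0.11) and Hoxb7 of 0.67 (0.45 to 0.90). Hoxb7 was higher in all 3 tumors than in all 3 cultures, and Hoxb4 and Hoxb9 were lower, each by less than the size called.

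The genes that appeared in 57SCLC_allo had 0 reads in all 3 cultures. Hoxa9, a gene of limb, trunk and blood progenitors, had 110.1, 28.3 and 85.1 normalized counts in tumors 275, 316 and 317, at least 41.2-fold higher. Hoxc5 had 76.6, 60.9 and 89.6, at least 41.8-fold higher. Hoxa10, which acts in the posterior trunk and the uterus, had 64.6, 19.8 and 73.8, at least 29.1-fold higher. Tumor 316 was the lowest of the 3 for each of these genes. Hoxc4 had 43.1, 43.9 and 56.7, Hoxa7 52.7, 26.9 and 52.2 and Hoxd9 40.7, 11.32 and 12.5, at least 26.5-fold, 24.3-fold and 11.9-fold higher. All 6 passed the filter through the tumors alone and so had to differ, and their calls add nothing to these values. In 46LCNEC_allo Hoxd9 was the only call of this kind, with 31.8, 22.1 and 81.9 normalized counts against 0 reads in culture, at least 13.7-fold higher. Hoxc4 and Hoxc5 were at 4.21 to 26.5 in the LCNEC tumors and did not pass the filter there.

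Sums of cell type markers were set beside these genes. In 57SCLC_cell the 8 fibroblast markers summed to 106 to 133 normalized counts with Lum at 0, and in 57SCLC_allo to 41613 to 64476. The 6 leukocyte markers went from 244 to 273, with Cd3e at 0, to 7919 to 13150. The 6 endothelial markers went from 7142 to 7813 to 10279 to 10980. The culture sum was almost all Vwf, at a mean of 7395, with Tie1 at 0, and Tie1 had a mean of 279 in the tumors. Tumor 316, lowest for Hoxa9, Hoxa10 and Hoxc5, was also lowest for the fibroblast and leukocyte sums, but highest for the endothelial sum (10980). Tumor 275, highest for Hoxa9, was not highest for any of the 3 sums. In Lung the fibroblast, leukocyte and endothelial sums were 27912 to 33512, 86659 to 114707 and 88814 to 107136. Hoxa9 had no read in any Lung sample and Hoxa10 at most 2 reads. Among the LCNEC tumors, 312 had the highest fibroblast (855317) and endothelial (9514) sums. It also had the most Hoxa9 (50.3), Hoxa10 (39.7), Hoxc4 (22.5) and Hoxc5 (26.5), whereas Hoxd9 was highest in tumor 321 (81.9). The fibroblast sum was already 82595 to 93068 in the LCNEC cultures, so in this line these markers do not mark host cells alone. The 4 keratinocyte markers summed to at most 112, the 5 adipocyte markers to 195 to 323 and the 5 skeletal muscle markers to 125 to 213 in 57SCLC_allo, against at most 172, 7.84 and 112 in 57SCLC_cell. In 46LCNEC_allo they reached 1391, 2514 and 140.0, against at most 382, 85.3 and 43.0 in 46LCNEC_cell, where Acta1 and Myh4 were at 0. The values of 1391 and 2514 were those of tumor 312 alone. Tumors 319 and 321 had 393 and 377 for the keratinocyte markers and 366 and 444 for the adipocyte markers. Krt1 and Krt5 were at 0 in 46LCNEC_allo. The part of host cells in the Hox genes of the allografts was not tested.

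**Figure D3:**
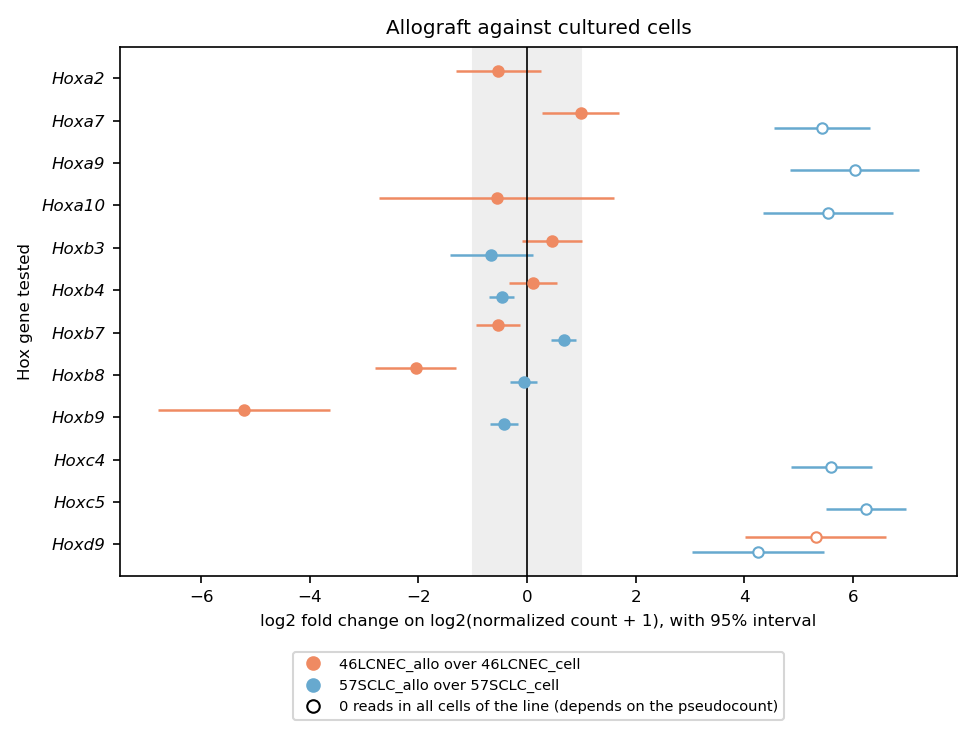
Log2 fold change of Hox genes tested in allografts over cultured cells of the same line (points, limma) with 95% intervals (bars); the grey band marks sizes below the threshold of 1, and open points had 0 reads in all cultures, so that their position depends on the pseudocount. Hoxb8 at -2.05 and Hoxb9 at -5.22 stand to the left for 46LCNEC, and the 57SCLC genes on the right are all open points.

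**Figure D4:**
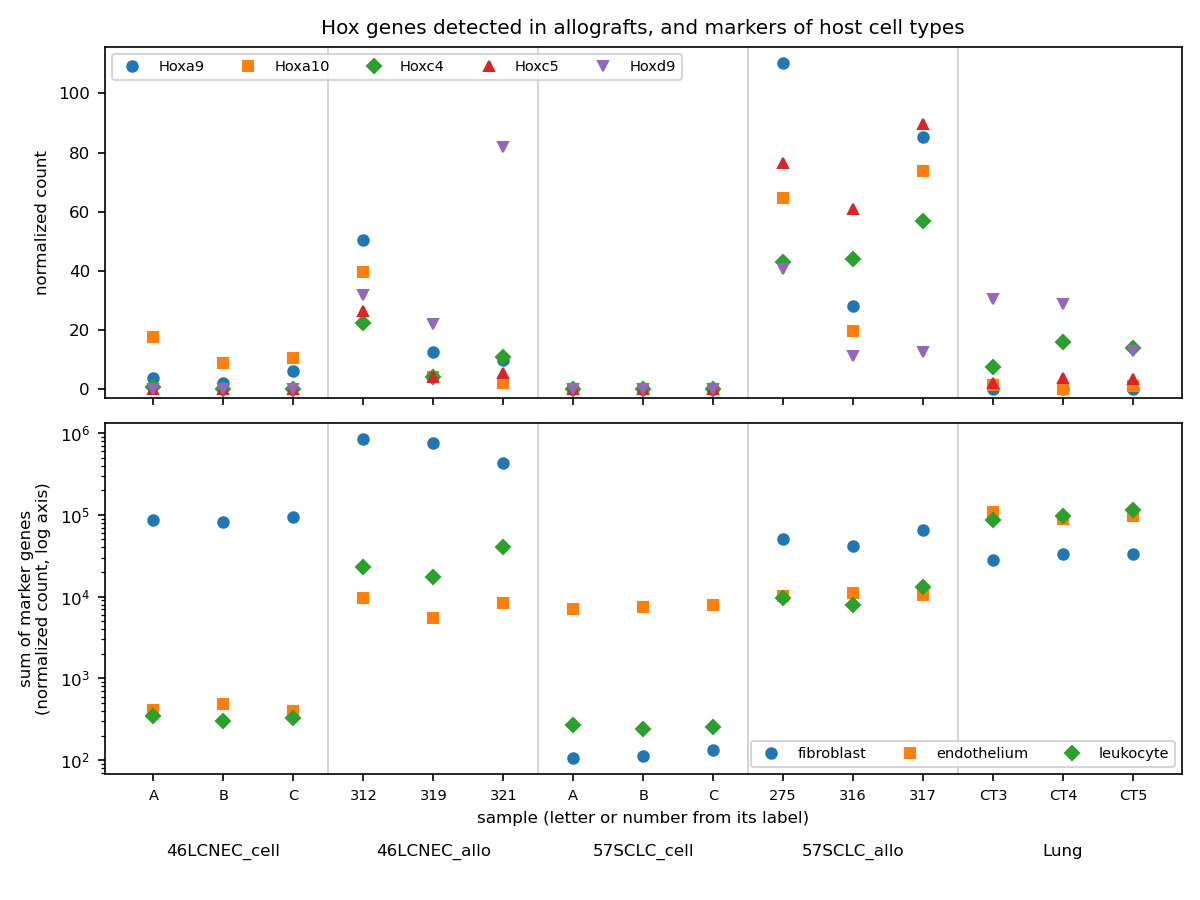
Normalized counts of Hoxa9, Hoxa10, Hoxc4, Hoxc5 and Hoxd9 by sample (upper panel, linear axis) above the summed normalized counts of fibroblast, endothelium and leukocyte markers (lower panel, log axis). The 5 genes are at 0 in the 3 57SCLC_cell samples, where the fibroblast sum is at most 133, and reach 110.1 in 57SCLC_allo.

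Whether the lines differed by the same amount in allografts and in cells was tested with an interaction term over 12 samples. Of 13 members tested, 8 were called with a larger signed difference (57SCLC minus 46LCNEC) in allografts and 0 with a smaller one, beside 10.8% and 6.78% among 18440 genes. Hoxa9, Hoxc4 and Hoxc5 passed the filter only with the 57SCLC_allo tumors, where they were highest, so these counts are a description. With edgeR and DESeq2 the count with a smaller value was 0 as well, and 2 of the 13 were smaller at an unadjusted p under 0.05. Of all 18440 genes, 8713 had such a p in either direction. For Hoxb9 the line difference was larger in the allografts by 4.79 ± 0.75 (log2, adjusted p = 0.00045), for Hoxb8 by 1.99 ± 0.36 (adjusted p = 0.0013) and for Hoxb7 by 1.214 ± 0.20 (adjusted p = 0.00062). These 3 kept their call in all 20 alternatives. Hoxb4 at -0.57 (95% interval -1.06 to -0.08, adjusted p = 0.063) and Hoxb3 at -1.11 (-2.08 to -0.13, adjusted p = 0.070) were not called. The calls of Hoxa7, Hoxa9, Hoxa10 and Hoxc5 involve at least 1 group with no read, so the size of their difference depends on the pseudocount, and Hoxa9 and Hoxc5 kept the call in 11 and 5 of 20 alternatives.

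The TALE cofactors were measured in full, all 9 passing the filter in each comparison. Meis1 was the gene whose level differed most between the cultured lines and against Lung. It had 2949, 2510 and 3172 normalized counts in Lung, 258, 244 and 233 in 46LCNEC_cell, and 448, 602 and 435 in the tumors of that line. The SCLC cultures had 0, 0.603 and 0 and the SCLC tumors 93.4, 58.0 and 66.95. Meis1 was therefore lower in the SCLC line than in the LCNEC line by -7.71 ± 0.26 on the log2 scale, a size that depends on the pseudocount since the SCLC cultures held 1 read in all, and it passed the filter through the LCNEC cultures alone. Pbx4 had 88.3 to 91.5 in 46LCNEC_cell and 677 to 920.3 in 57SCLC_cell (3.17 ± 0.14, adjusted p = 3.3e-07). Between the allografts Pbx4 differed most, by 3.985 ± 0.32 against -2.76 ± 0.26 for Meis1. Between the cultured lines 2 of the 9 were called higher and 2 lower in the SCLC line, close to the 23.9% and 22.2% of all genes, with a list median of 0.72 against 0.00028 over all genes tested, and between the allografts 2 were higher and 1 lower, beside 16.1% and 14.2%, with a median of 0.39 against 0.015.

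Among 20 Polycomb group genes 4 were called higher and 1 lower in 57SCLC_cell than in 46LCNEC_cell (list median 0.34), no larger a share than the 23.9% and 22.2% of all genes. Cbx2, a subunit that binds trimethylated H3, was higher by 2.36 ± 0.17 on the log2 scale (adjusted p = 5.3e-06), and Ezh1, a methyltransferase of H3, by 1.96 ± 0.16 (adjusted p = 1.1e-05). Between the allografts 3 were higher and 1 lower (median 0.38), beside 16.1% and 14.2%, and Cbx2 differed by 2.34 ± 0.11 (adjusted p = 1.3e-05). Ezh2, the methyltransferase of dividing cells, was higher than in Lung by 2.43 ± 0.08 in 46LCNEC_cell and 3.06 ± 0.11 in 57SCLC_cell. From culture to allograft 3 Polycomb genes were higher in the LCNEC line, led by Ezh1 at 2.49 ± 0.18, and 1 in the SCLC line, beside 14.4% of all genes in each. None of the 13 Trithorax genes and partners was called between the cultured lines or between the allografts by limma, with medians of 0.57 and 0.45, nor by edgeR or DESeq2. At an unadjusted p under 0.05 there were 10 in each comparison, 9 higher and 1 lower in the SCLC cultures and all 10 higher in the SCLC tumors. Among all genes, 13402 of 16920 had such a p between the cultures and 10719 of 17502 between the allografts.

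Of 17 retinoic acid pathway genes, 14 were tested between the cultured lines, with 5 called higher and 4 lower in the SCLC line (median 0.62), beside 23.9% and 22.2% of all genes. Between the allografts 16 were tested, with 3 higher and 7 lower (median -1.33), beside 16.1% and 14.2%. The lists were not tested as groups. Aldh1a3, which makes retinoic acid, had a mean of 36.9 in 46LCNEC_cell and of 1912 in 57SCLC_cell (5.64 ± 0.19, adjusted p = 7.2e-08). The receptor Rarg had means of 2941 and 24.7 (-6.86 ± 0.21, adjusted p = 4.2e-08). In the LCNEC line 5 of 15 genes were higher and 1 lower in allografts than in culture, beside 14.4% and 8.45% of all genes. Among them Crabp2, which carries retinoic acid to the nucleus, rose by 4.83 ± 0.42 (adjusted p = 0.00013), and of the 2 enzymes that degrade it Cyp26a1 rose by 6.03 ± 0.70 (adjusted p = 0.00047) while Cyp26b1 fell by 4.41 on the log2 scale (adjusted p = 0.00026). In the SCLC line 3 of 15 were higher and 5 lower in allografts, beside 14.4% and 2.29%. Of the 6 ParaHox genes, relatives of the Hox clusters, only Pdx1 passed the filter in any comparison, with a mean of 85.3 normalized counts in 57SCLC_cell and no read in 46LCNEC_cell or Lung.

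Genes beside and inside the clusters were followed for comparison. Hotairm1, a noncoding RNA read from the opposite strand at the early end of the Hoxa cluster, had 541, 474 and 507 normalized counts in Lung, 230, 272 and 336 in the LCNEC cultures and 306, 252 and 185 in the LCNEC tumors. It had 0 in all SCLC cultures and 43.1, 31.1 and 42.0 in the SCLC tumors. Like the Hoxa genes it had no read in the SCLC cultures. Its span overlaps that of Hoxa2, so their counts may not be independent. Skap2, the nearest protein-coding gene beyond that end of the cluster, had 971 to 1030 in 46LCNEC_cell and 9.05 to 16.2 in 57SCLC_cell (-6.16 ± 0.22, adjusted p = 9.6e-08), whereas the next gene, Snx10, had 820 to 902 and 655 to 1080. Skap1, the first gene beyond Hoxb1, went the other way, with 35.3 to 53.0 in 46LCNEC_cell and 2925, 2814 and 6446 in 57SCLC_cell (6.35 ± 0.32, adjusted p = 6.4e-07). Culture C of 57SCLC_cell again stood apart, as it did for Hoxb3. Skap1 also rose from culture to allograft in the LCNEC line, to 304 to 707.

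Beyond the other end of the Hoxb cluster, Ttll6 had 594 to 719 normalized counts in Lung and at most 6.62 in the tumor samples. Inside the cluster the antisense gene Hoxb5os had means of 34.9 ± 7.52 in Lung, 117 ± 5.34 and 54.8 ± 13.8 in the LCNEC cultures and tumors, and 142 ± 20.0 and 281 ± 38.4 in the SCLC cultures and tumors. Its line difference was called between the allografts (2.36 ± 0.28, adjusted p = 0.00048), as for Hoxb7, Hoxb8 and Hoxb9, whose spans it overlaps. Evx1 and the noncoding RNA Hotair of the Hoxc cluster had no read in any sample.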

How the data were processed

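RNA of 15 samples, isolated with the miRNeasy kit and selected for poly-A, was sequenced on an Illumina NovaSeq. Alignment to GRCm39 by the authors used Rbowtie2, gene counts came from featureCounts with GENCODE release M27, and each sample's counts were divided by its DESeq2 size factor. The deposited values are therefore a normalized signal and not raw counts. Strand setting and the treatment of reads over several genes are not given in the sources used here. In every sample all nonzero values were whole multiples of 1 step (within 0.01), so reads were recovered by division. Annotation release M39 of GRCm39, which holds 54749 (98.9%) of the identifiers and all 39 members, gave coordinates and overlaps, and RefSeq gave promoters.

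Groups were compared with limma 3.58.1 (R 4.3.3, mean-variance trend) on log2(normalized count + 1), with only the samples of each comparison, after dropping genes that reached 10 normalized counts in fewer than 3 of them. P-values were adjusted by Benjamini-Hochberg over all genes tested. Fold changes on this scale understate those of low genes. Against a group with 0 reads, a fold is the bound given by 3 reads in the library with the highest floor. With 1 to 3 reads it is the ratio of read rates with an exact 95% interval. Both cover counting error only. Alternatives were edgeR 4.0.16 and DESeq2 1.42.0 on recovered reads, pseudocounts of 0.1 and 5, no filter, library size scaling, an adjusted p of 0.05, all 15 samples in 1 model, each sample left out and the culture letters as a block. The procedures were tested on simulated data. Members with a group mean of at least 100 were given in every sample, and the others by range or where called. From each gene list up to 4 genes with the largest called changes could be named, and beside the clusters genes with a group mean of at least 100. Col1a2, Ncam1, Snx10, Hotair and Evx1 were named after their values were seen. Some items are not reported here. The members and lists were chosen with earlier results of these data known. Python 3.11.15, scipy 1.17.1 and matplotlib 3.10.9 were used for the rest.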

Additional observations from a re-analysis of the deposited data

Results flagged for a closer look

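For the 7 Hox genes given here the difference between the lines was not the same in allografts and in cells, by the interaction test over 12 samples (limma), and the signed difference (57SCLC minus 46LCNEC) was larger in allografts for all 7. For Hoxa7 this was a smaller LCNEC excess, -4.57 (log2) in cells and -0.13, not called, in allografts. Groups of 3 were too small for a test of single samples. Hoxb9 differed by 4.79 (log2), with the LCNEC allografts at 17.9 to 128 normalized counts against 1295 to 1695 in their cells. Hoxb8 differed by 1.99, with 191 to 501 in the LCNEC allografts against 1279 to 1421 in their cells. Hoxb7 differed by 1.214, with all 3 SCLC allografts above their cells and all 3 LCNEC allografts below theirs. Hoxa7 differed by 4.44, with no read in 57SCLC_cell and 26.9 to 52.7 normalized counts in 57SCLC_allo. Hoxa10 differed by 6.10 and Hoxa9 by 3.99, both without a read in 57SCLC_cell. Hoxc5 differed by 2.95, with no read in the cells of either line. The sizes for Hoxa7, Hoxa9, Hoxa10 and Hoxc5 depend on the pseudocount, and the call was kept in 5 of 20 alternatives for Hoxc5 and in 11 of 20 for Hoxa9. Hoxa9 and Hoxc5 passed the filter only with the 57SCLC_allo tumors, where they were highest.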

How the results depend on the processing

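The number of Hox genes called stayed within 1.5 times in 118 of 133 recounts. Without the filter on low values 11 members were called between the cultured lines (7 with it), 10 in 46LCNEC_cell over Lung (6 with it) and 6 in 46LCNEC_allo over 46LCNEC_cell (3 with it), since members with few reads then entered the test. With all 15 samples in 1 model, 10 were called in 46LCNEC_cell over Lung and 6 in 46LCNEC_allo over 46LCNEC_cell. Between the allografts edgeR called 3 and a pseudocount of 0.1 called 3, in place of 6. With 1 sample left out, the counts ranged from 3 to 6 between the allografts, from 5 to 9 for the interaction (8 in the full data), from 7 to 8 between the cultured lines and in 46LCNEC_cell over Lung, from 9 to 10 in 57SCLC_cell over Lung, from 4 to 6 in 46LCNEC_allo over Lung, from 10 to 11 in 57SCLC_allo over Lung and from 2 to 4 in 46LCNEC_allo over 46LCNEC_cell, and was 6 throughout in 57SCLC_allo over 57SCLC_cell. The cause was not tested.

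For single Hox genes 1236 recomputed values kept direction and call, 48 lost the call, 8 gained it and 19 changed sign, none of these called. With edgeR the sign changed for Hoxb4 (0.0086 in 46LCNEC_cell and 0.081 in 46LCNEC_allo, over Lung), Hoxc4 (0.0704 in 46LCNEC_allo over Lung) and Hoxa10 (0.26 in 46LCNEC_allo over 46LCNEC_cell). With DESeq2 it changed for Hoxb4 (0.058) and Hoxc4 (0.0596) in 46LCNEC_allo over Lung and Hoxa10 (0.30) in 46LCNEC_allo over 46LCNEC_cell, and with library size scaling for Hoxa7 between the allografts (0.13). Leaving out 1 sample gave -0.29 to 0.19 for Hoxa7 between the allografts, -0.22 to 0.092 for Hoxb4 and -0.71 to 0.38 for Hoxc4 in 46LCNEC_allo over Lung, -0.87 to 0.0068 for Hoxd9 in 57SCLC_allo over Lung, -1.66 to 0.17 for Hoxa10 and -0.094 to 0.22 for Hoxb4 in 46LCNEC_allo over 46LCNEC_cell, and -0.14 to 0.011 for Hoxb8 in 57SCLC_allo over 57SCLC_cell.

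Samples of the 2 lines with the same letter did not deviate together (r = 0.092, -0.084 and -0.0062 over 16920 genes), so the letters share only a name. With the letters as a replicate block 7 members were called, and 7797 genes in all in place of 7799. At this depth a gene with 0 reads may have had up to 3 reads' worth, which is 7.18 normalized counts in 57SCLC_allo tumor 275.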
